A study of Mus musculus with 6 samples.

Results

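Expression of 9 genes of folate one-carbon and serine metabolism was examined in LSK cells, bone marrow cells without lineage markers but with Sca-1 and c-Kit, among which are haematopoietic stem cells and early progenitors. They were *Shmt1*, *Shmt2*, *Mthfd1*, *Mthfd1l*, *Mthfd2*, *Psph*, *Aldh1l2*, *Ahcy* and *Mat2a*, found by gene name among 37074 names on the array and measured by 18 of its 56605 probes. The list was drawn up with earlier results of these data known, so the shares of all genes given beside it describe and do not test. Of the 9 genes, 8 were well above background on all 6 arrays. For these 8, every array labelled Atg5f/f;Vav was brighter than every control array at the gene's brightest probe, and 7 of them passed the test, with log2 fold changes from 0.48 (*Psph*) to 1.59 (*Mthfd2*). Over all genes tested, 29.6% showed such a gap upwards and 18.7% were called higher. The count of 7 fell to 0 when control replicate 1 or control replicate 2 was left out. Among the 7, *Mthfd1* was called at its brightest probe only, and its other probe gave -0.24 (limma adjusted p = 0.491). *Mat2a* did not pass, and *Aldh1l2* was not well above background on any array.

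The study deleted *Atg5*, a gene needed for autophagy, in blood cells and asked how young haematopoietic stem cells depend on it. Total RNA of LSK cells from C57BL/6 mice at P6 to P8 was hybridised to 1-colour Agilent arrays, with 3 samples of control mice (Atg5w/w;VaviCre+) and 3 of Atg5f/f;Vav mice (Atg5f/f;VaviCre+). Both groups therefore carried the Vav-iCre transgene, which drives Cre in haematopoietic cells from embryonic life on, and differed in the floxed *Atg5* alleles. The labels do not say whether the samples came from separate mice, so n, SD and p refer to the spread between arrays, which may be technical.

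Serine hydroxymethyltransferases move a carbon unit from serine to tetrahydrofolate, and the enzymes of the MTHFD family interconvert the oxidation states of that unit. Mitochondria hold one set of these enzymes and the cytosol another, and formate carries the units between them. The units are used to build purines and thymidylate and to remethylate homocysteine, which feeds the S-adenosylmethionine cycle and so methylation reactions. Proliferating cells, blood progenitors among them, are known for a high demand for these units.

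Values are the log2 of a spot's intensity minus the 75th percentile of its own array, so that 0 is the level of a spot brighter than 75% of the others, and they are not comparable between probes. The 75th percentile of intensity lay between 620.3 and 881.4, and between 53.6% and 59.9% of spots were well above background, with the 3 lower shares on the arrays labelled Atg5f/f;Vav. All arrays shared 1 slide and 1 scan, and because row 1 of the slide held the control arrays and row 2 the others, position on the slide and genotype cannot be told apart. *Atg5* itself, read by 1 probe, gave 1.10, 0.93 and 1.06 in control and 1.46, 1.51 and 1.74 in Atg5f/f;Vav. The difference of 0.54 (standard error 0.12, limma adjusted p = 0.0209) went against the label. It was not determined whether that probe lies in the deleted part, and each direction below rests on the labels. All 8 LSK markers (*Kit*, *Ly6a*, *Cd34*, *Ptprc*, *Hlf*, *Mecom*, *Hoxa9*, *Meis1*) were well above background on all arrays, with 1 called higher (*Ly6a*, which encodes Sca-1) and 5 called lower in the arrays labelled Atg5f/f;Vav. Those lower were *Hlf*, *Mecom*, *Hoxa9*, *Meis1* and *Ptprc*, the last just inside the threshold at its brightest probe (limma adjusted p = 0.04997). Further *Ptprc* probes ran from -0.15 (limma adjusted p = 0.609) to -1.16 (limma adjusted p = 0.0110), some called lower and some not. *Kit* and *Cd34* were not called at their brightest probes. Further *Kit* probes, on another transcript, gave -0.62 and -0.67 and were called lower (limma adjusted p = 0.0230 and 0.0207). Among all genes tested, 18.7% were called higher and 15.3% lower.

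At the level of genes, each read by its brightest probe, 7 of the 8 tested members were called higher and 0 lower by limma, against 18.7% higher and 15.3% lower among the 20778 genes tested. At an unadjusted p under 0.05, 8 were higher and 0 lower, by limma and by the t-test of the study's methods. Groups without overlap, Atg5f/f;Vav above control, were found for 8 of 8 members and for 29.6% of all genes tested. These shares are no test of the members, which were chosen with earlier results of these data known. The median log2 fold change was 0.89 over the members and -0.03 over all genes tested. For *Mthfd1* both the call and the gap between groups held at the brightest probe only. With the probes of each gene averaged, 6 members were called, *Mthfd1* not among them.

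Without control replicate 1, and likewise without control replicate 2, where no member had an adjusted p under 0.05, all 8 were still higher and 7 had an unadjusted p under 0.05. Over all probes the calls fell from 11024 to 330 and 251 at the same steps. With any other array left out, 6 or 7 members were called.

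**Figure D1:**
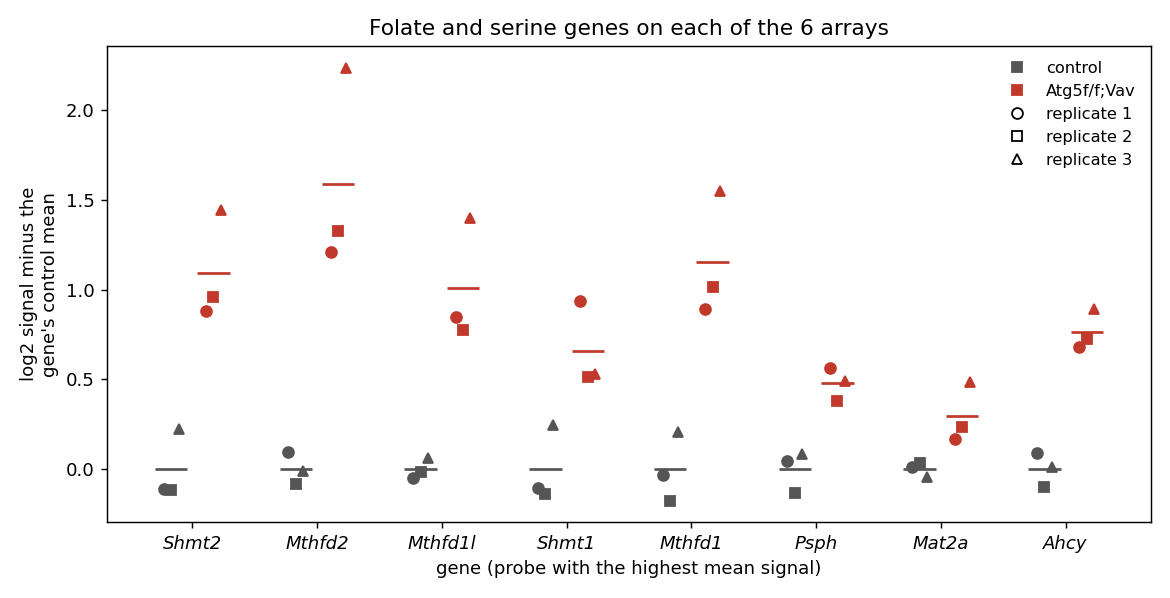
Log2 signal of the 8 tested genes on each of the 6 arrays, minus the gene's control mean. Grey points are control and red points Atg5f/f;Vav arrays, symbols mark the replicate and horizontal lines the group means. In each gene all 3 red points lie above all 3 grey points, and replicate 3 is the highest red point for 6 of the 8 genes.

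Among the enzymes of mitochondria, *Mthfd2*, *Shmt2* and *Mthfd1l* were 2.01-fold to 3.01-fold brighter in the arrays labelled Atg5f/f;Vav. *Mthfd2* encodes the mitochondrial methylenetetrahydrofolate dehydrogenase and cyclohydrolase, an enzyme abundant in embryonic and dividing cells. Its brighter probe (mm9, chr6:83256518-83256577) gave -0.73, -0.91 and -0.84 in control and 0.39, 0.50 and 1.42 in Atg5f/f;Vav. The control arrays lay close together, whereas replicate 3 of Atg5f/f;Vav stood above the other two. The log2 fold change was 1.59 (standard error 0.27, limma adjusted p = 0.0153), and 1.27 without that replicate. The second probe, further along the transcript, gave 1.49 (adjusted p = 0.0158).

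*Shmt2*, the mitochondrial serine hydroxymethyltransferase, had 2.30, 2.29 and 2.63 in control and 3.29, 3.36 and 3.85 in Atg5f/f;Vav at its brighter probe (mm9, chr10:126954811-126954870). The gap between the groups was larger than the range of the control arrays, and replicate 3 was the highest in both. This was a log2 fold change of 1.09 (standard error 0.18, limma adjusted p = 0.0153). A probe near the 5′ end of the transcript, starting at base 48, gave 0.83 (adjusted p = 0.0199).

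*Mthfd1l* encodes the mitochondrial formyltetrahydrofolate synthetase that releases formate. Its probe at mm9 chr10:6198416-6198475 gave 0.15, 0.19 and 0.26 in control and 1.05, 0.98 and 1.60 in Atg5f/f;Vav. The control arrays were nearly equal and the groups did not overlap, with a log2 fold change of 1.01 (standard error 0.18, limma adjusted p = 0.0158). A second probe, designed on a predicted transcript, was not well above background on any array. *Aldh1l2*, the mitochondrial formyltetrahydrofolate dehydrogenase, had 3 probes, and none was well above background on any array, so no fold change is given.

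In the cytosol, *Shmt1* was higher at both of its probes and *Mthfd1* at 1 of 2. *Shmt1*, the cytosolic serine hydroxymethyltransferase, had -0.71, -0.74 and -0.36 in control and 0.33, -0.09 and -0.07 in Atg5f/f;Vav at its brighter probe (mm9, chr11:60603099-60603158). Here replicate 1 was the highest of the Atg5f/f;Vav arrays, and the gap between the groups was smaller than the spread within either. The log2 fold change was 0.66 (standard error 0.17, limma adjusted p = 0.0278). The dimmer probe gave 0.39 with an adjusted p of 0.0499, just inside the threshold of 0.05. With a 75th percentile of only those probes that every array detected, the brighter probe had a log2 fold change of 0.45 (adjusted p = 0.0657), without Atg5f/f;Vav replicate 1 it had 0.52 (adjusted p = 0.0503), and with no filter on dim probes the adjusted p was 0.0681.

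*Mthfd1* encodes the cytosolic trifunctional enzyme, with synthetase, cyclohydrolase and dehydrogenase activities. Its probe at base 3187 of the transcript (mm9, chr12:77420671-77420730) gave 4.08, 3.94 and 4.33 in control and 5.01, 5.13 and 5.67 in Atg5f/f;Vav, a log2 fold change of 1.15 (standard error 0.20, limma adjusted p = 0.0154). Its probe at base 1426 (mm9, chr12:77391995-77392054) gave 4.03, 4.31 and 3.88 in control and 3.24, 4.11 and 4.14 in Atg5f/f;Vav. At this probe the groups overlapped, and the log2 fold change was -0.24 (95% interval -0.87 to 0.38, limma adjusted p = 0.491).

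The probes of *Mthfd1* thus gave different answers. The later minus the earlier probe was 0.05, -0.37 and 0.45 in control and 1.77, 1.02 and 1.53 in Atg5f/f;Vav. The group means of this within-array difference were 1.40 apart, with no overlap (exact permutation test, 2-sided p = 0.1, the smallest that 3 arrays against 3 allow). When its probes were averaged instead, *Mthfd1* had a log2 fold change of 0.45 (limma adjusted p = 0.116) and was not called.

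*Psph* encodes phosphoserine phosphatase, the last step of serine synthesis. Its 1 probe (mm9, chr5:130271441-130271500) gave 1.48, 1.30 and 1.52 in control and 2.0, 1.81 and 1.93 in Atg5f/f;Vav. Both groups were tight and did not overlap, at a log2 fold change of 0.48 (standard error 0.12, limma adjusted p = 0.0239). It was 0.31 (adjusted p = 0.0604) after quantile normalisation and 0.27 (adjusted p = 0.0760) with that other percentile, and with no filter on dim probes the adjusted p was 0.0645.

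In the methylation cycle, *Ahcy* rose and *Mat2a* did not pass the test. *Ahcy*, which hydrolyses S-adenosylhomocysteine, was read by 1 probe (mm9, chr2:154891321-154891380) with -1.43, -1.62 and -1.51 in control and -0.84, -0.80 and -0.63 in Atg5f/f;Vav. The spread within each group was small beside the gap between them. The log2 fold change was 0.77 (standard error 0.12, limma adjusted p = 0.0142), the smallest adjusted p among the members.

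*Mat2a* encodes the methionine adenosyltransferase that makes S-adenosylmethionine outside the liver. Its brightest probe (mm9, chr6:72383800-72383859) gave 5.12, 5.14 and 5.07 in control and 5.27, 5.34 and 5.59 in Atg5f/f;Vav. The groups did not overlap but lay close together. The log2 fold change was 0.29 (95% interval 0.01 to 0.58, limma adjusted p = 0.0979), and the other 2 probes gave 0.38 and 0.31 with adjusted p of 0.0655 and 0.117. After quantile normalisation the log2 fold change of *Mat2a* was -0.053, whereas with normexp background correction it was 0.32 and *Mat2a* was called (limma adjusted p = 0.0469), as it was with an intensity trend in eBayes (adjusted p = 0.0440).

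**Figure D2:**
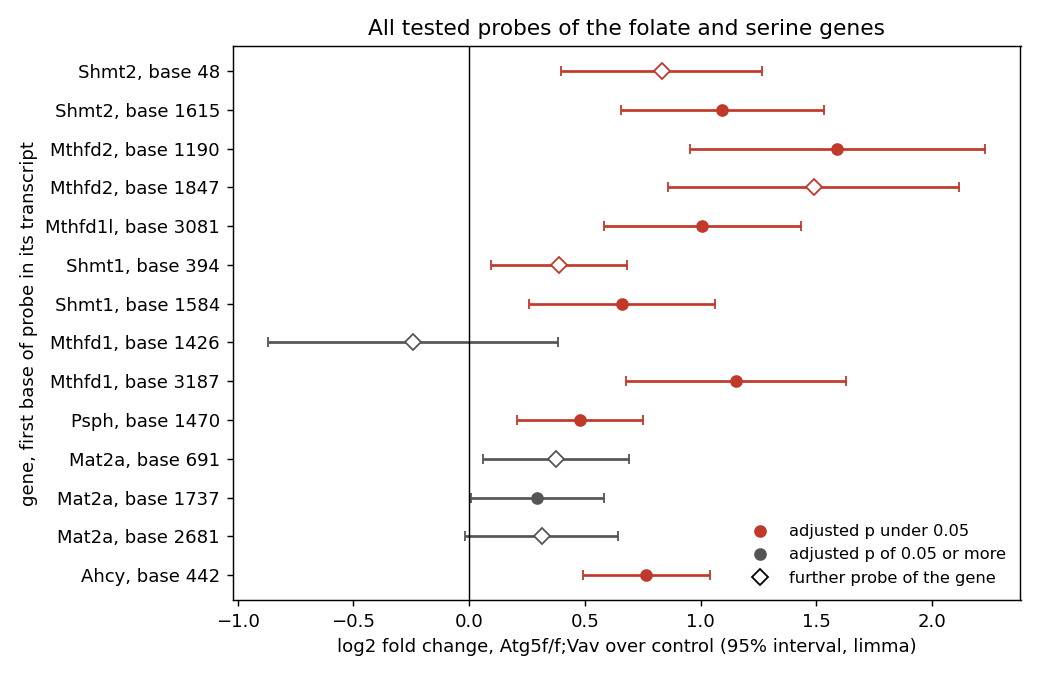
Log2 fold change, Atg5f/f;Vav over control, of all 14 tested probes of the 8 genes, with 95% intervals from limma (3 arrays per group). Filled circles are the brightest probe of a gene, open diamonds its further probes, and red marks an adjusted p under 0.05. Of the 14 probes, 13 lie right of 0, and the earlier *Mthfd1* probe is the exception at -0.24.

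Of the 18 probes, 14 were tested and 10 were called higher, where 17.3% of the 32074 probes tested were called higher. None was called lower, as 17.1% of all probes were, and 13 of the 14 lay above control without overlap, as 27.1% of all probes did. The 4 probes tested but not called were the earlier *Mthfd1* probe and the 3 of *Mat2a*. The 4 probes that were not tested belonged to *Aldh1l2* (3) and *Mthfd1l* (1).

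The mitochondrial and cytosolic forms of an enzyme were compared within each array. *Shmt2* minus *Shmt1* was 3.01, 3.03 and 2.98 in control and 2.96, 3.45 and 3.92 in Atg5f/f;Vav. The control arrays were nearly equal while the Atg5f/f;Vav arrays spread on both sides of them (difference 0.43, exact permutation test, 2-sided p = 0.4, 0.4 adjusted over 3 pairs). *Mthfd1l* minus *Mthfd1* differed by -0.14 between the groups (exact permutation p = 0.2, adjusted 0.3), and the groups overlapped. This pair used the *Mthfd1* probe at base 3187. The *Mthfd1* probe at base 1426 had a log2 fold change of -0.24, against 1.01 for *Mthfd1l*. The pair was not computed with it, and the small difference holds for the later probe only.

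*Mthfd2* was also set against *Mthfd2l*, its mitochondrial paralog, whose own log2 fold change was -0.09 (95% interval -0.40 to 0.21, limma adjusted p = 0.597). *Mthfd2* minus *Mthfd2l* was -0.18, -0.59 and -0.59 in control and 0.71, 1.02 and 1.96 in Atg5f/f;Vav. The groups did not overlap, with a difference of 1.68 (exact permutation p = 0.1, the smallest possible here, and 0.3 adjusted over 3 pairs).

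**Figure D3:**
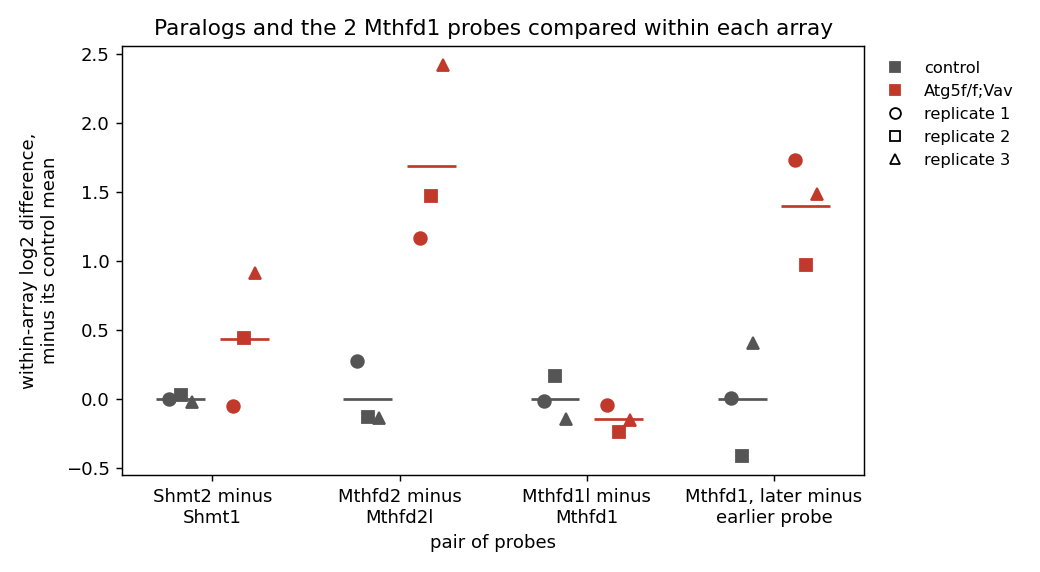
Within-array log2 differences between paralogs, and between the 2 *Mthfd1* probes, each minus its control mean. Grey points are control and red points Atg5f/f;Vav arrays, symbols mark the replicate and horizontal lines the group means. *Mthfd2* minus *Mthfd2l* and the 2 *Mthfd1* probes show no overlap between groups, and the other pairs overlap. *Mthfd1l* is set against the later *Mthfd1* probe only.

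Replicate 3 was the highest Atg5f/f;Vav array for 6 of the 8 genes, all but *Shmt1* and *Psph*, for which replicate 1 was the highest. In control, replicate 3 was the highest for 5 of 8. The mean profile of the 8 genes, each centred on its own mean, was -0.45, -0.53 and -0.34 in control and 0.33, 0.30 and 0.69 in Atg5f/f;Vav. The genes nearest to that profile over the 6 arrays were *Tma16*, *Hras* and *Phf5a*, with a root mean square difference of 0.0199, 0.0219 and 0.0264 on the log2 scale, and probes named NAP059687-1 and ENSMUST00000191412, with 0.0238 and 0.0279.

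Since 7 of the members were called in the same direction, the bases before the transcription start sites of all members with a promoter, *Mat2a* included, were read for shared sequence. RefSeq promoters (GRCm38.p6) were matched for 8 of the 9 genes, all but *Aldh1l2*, and 300 bases around each start, 250 before and 50 after, were searched on both strands. The CCAAT box (CCAAT, or ATTGG on the other strand) was found in 6 of the 8 and in 37.4% of all 32851 promoters. The members without it were *Shmt2* and *Mthfd1l*. The C/EBP-ATF response element TGATGNAA was in 0 of 8 (3.97% of all), the E-box CACGTG in 0 of 8 (7.15%) and the core of the antioxidant response element, TGACNNNGC, in 1 of 8 (12.4%), *Psph*. These matches describe letters in a window and not binding. The 250 bases before the start are shown for *Mthfd2* (chr6:83317605-83317854, minus strand), which had the largest fold change of the members, and for the mitochondrial and cytosolic hydroxymethyltransferases *Shmt2* (chr10:127522445-127522694, minus strand) and *Shmt1* (chr11:60811266-60811515, minus strand), which differ in this motif. They are written 5′ to 3′ on the strand of the gene, with each CCAAT or ATTGG in capitals.
Mthfd2: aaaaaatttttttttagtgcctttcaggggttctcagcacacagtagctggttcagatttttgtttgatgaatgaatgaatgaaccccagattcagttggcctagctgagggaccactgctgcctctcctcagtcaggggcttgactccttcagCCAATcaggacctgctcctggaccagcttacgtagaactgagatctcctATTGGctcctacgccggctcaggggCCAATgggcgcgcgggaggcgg
Shmt2: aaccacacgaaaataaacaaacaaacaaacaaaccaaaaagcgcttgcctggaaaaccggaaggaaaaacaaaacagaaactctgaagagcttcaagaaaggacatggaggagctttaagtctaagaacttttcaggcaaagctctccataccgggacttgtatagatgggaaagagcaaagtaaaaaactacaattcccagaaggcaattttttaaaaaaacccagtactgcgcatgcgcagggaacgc
Shmt1: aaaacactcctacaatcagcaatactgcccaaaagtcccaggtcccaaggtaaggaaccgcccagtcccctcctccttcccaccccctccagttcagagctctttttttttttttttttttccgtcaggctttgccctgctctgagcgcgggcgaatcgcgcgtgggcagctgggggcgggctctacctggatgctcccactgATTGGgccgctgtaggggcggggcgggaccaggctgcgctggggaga
*Mthfd2* held 3 matches, starting at -96, -47 and -22 relative to the transcription start, *Shmt1* held 1 at -47, and *Shmt2* none. The share of G and C in these 250 bases was 52.4%, 60.0% and 40.8% for *Mthfd2*, *Shmt1* and *Shmt2*.

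Other genes of the pathway were divided by role. Of the other folate-dependent enzymes, 6 of 13 tested were called higher and 0 lower (8 and 0 at an unadjusted p under 0.05, 7 and 0 by the methods' t-test), with a median log2 fold change of 0.40. *Gart*, a trifunctional enzyme of purine synthesis that uses formyltetrahydrofolate, rose by 0.99 (limma adjusted p = 0.0164). Thymidylate synthase *Tyms* rose by 0.77 and folylpolyglutamate synthase *Fpgs* by 0.75. *Tyms* has a further probe, on another transcript, with a log2 fold change of 0.09 that was not called.

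Of 8 tested genes of serine synthesis and transport other than *Psph*, 4 were called higher and 1 lower, with a median of 0.48. At an unadjusted p under 0.05, 4 were higher and 2 lower by limma, and 4 and 1 by the methods' t-test. *Psat1*, the transaminase just before *Psph*, gave 3.23, 3.05 and 3.47 in control and 4.10, 4.22 and 4.87 in Atg5f/f;Vav, and *Phgdh*, the first enzyme of the route, 5.46, 5.42 and 5.61 against 6.08, 6.06 and 6.12. All 3 enzymes of serine synthesis were therefore called higher, with log2 fold changes of 1.15 for *Psat1*, 0.59 for *Phgdh* and 0.48 for *Psph*. *Sdsl*, a serine dehydratase-like gene, rose by 1.69, and *Sfxn1*, the mitochondrial serine transporter, by 0.74. Serine racemase *Srr* fell by 0.65.

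Of 4 tested genes of the glycine cleavage system, *Dld* (0.67) and *Gcsh* (0.56) were called higher and none lower (2 and 0 at an unadjusted p under 0.05 and by the methods' t-test). Of 4 folate transporters, 1 was called in each direction (2 higher and 1 lower at an unadjusted p under 0.05, 1 and 1 by the methods' t-test). *Slc19a1*, the reduced folate carrier, rose by 1.02, and the folate receptor *Folr1* fell by 0.52, although it was well above background on only 2 of the 3 Atg5f/f;Vav arrays. A dimmer *Slc19a1* probe gave 0.60 and was not called. *Slc25a32*, the mitochondrial folate carrier, had 0.51 (limma adjusted p = 0.0567). Of 6 further genes of the methionine cycle and transsulfuration, 0 were called by limma in either direction (2 higher and 0 lower at an unadjusted p under 0.05, 1 and 0 by the methods' t-test), with a median of 0.21. Over these 35 tested genes of the pathway outside the members, 13 were called higher and 2 lower, with a median of 0.37.

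**Figure D4:**
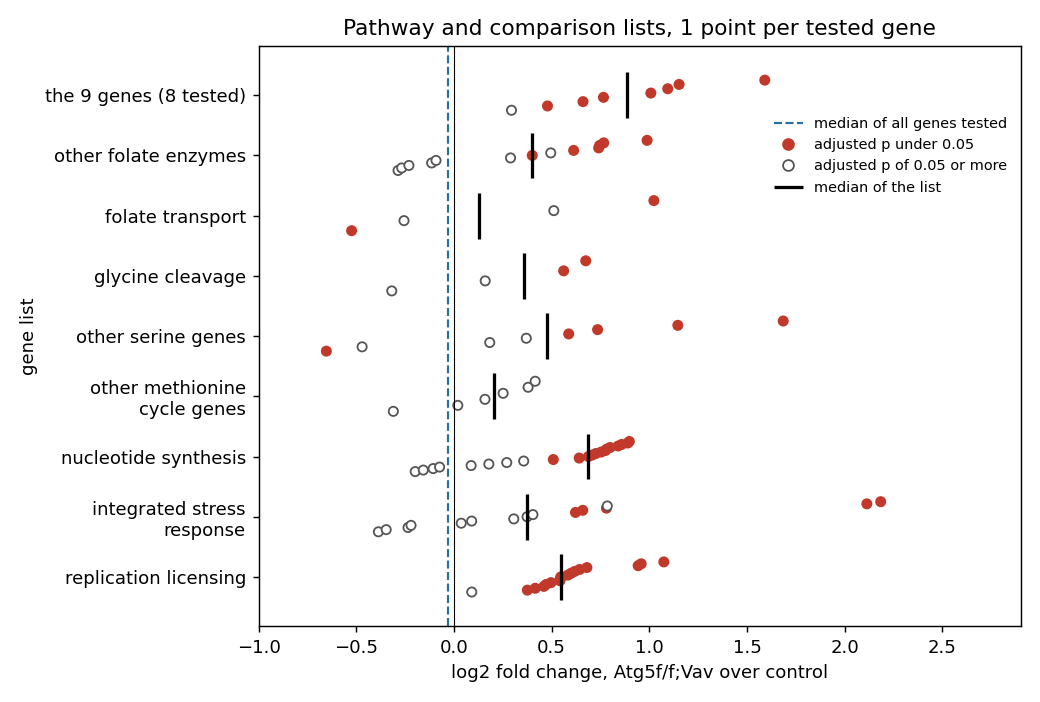
Log2 fold change, Atg5f/f;Vav over control, of each tested gene by list, 1 point per gene at its brightest probe, with red for an adjusted p under 0.05 and black bars for list medians. The dashed line is the median of all genes tested, -0.03. The median is 0.89 for the members and between 0.13 and 0.69 for the other lists.

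Nucleotide synthesis, replication licensing and the integrated stress response were described in the same way. Of 21 genes of nucleotide synthesis, 13 were called higher and 0 lower (14 and 0 at an unadjusted p under 0.05, 15 and 0 by the methods' t-test), with a median of 0.69, *Cad* (0.90) and *Dhodh* (0.89) of pyrimidine synthesis leading. A dimmer *Cad* probe gave 0.29 and was not called. Of 17 genes of replication licensing, 16 were called higher and 0 lower (16 and 0 by both other counts), with a median of 0.55, led by *Mcm10* (1.07) and *Cdc45* (0.96). Further probes of *Mcm10* (0.63) and *Cdc45* (0.38) were not called. Of 15 tested genes of the integrated stress response, 5 were called higher and 0 lower (5 and 1 at an unadjusted p under 0.05 and by the methods' t-test), with a median of 0.37. Asparagine synthetase *Asns* rose by 2.18 and *Nupr1* by 2.11. A further *Nupr1* probe, on another transcript, gave -0.05 and was not called. *Ddit3* was not called at its brightest probe (-0.24), but a dimmer probe, on another transcript, gave 0.84 and was called higher (limma adjusted p = 0.0449). *Asns* gave 3.40, 4.06 and 5.26 on the Atg5f/f;Vav arrays, so replicate 3 was the highest there as for *Mthfd2*. The part of these lists in the members' differences was not tested.

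Markers of other cells were counted in the same way, beside the 18.7% of all genes called higher and 15.3% called lower, and their part in the members' differences was not tested. Of 10 erythroid markers, *Klf1*, *Tfrc* and *Epor* were called higher and *Hba-a1*, *Hbb-b1*, *Alas2* and *Slc4a1* lower, and their summed linear signal was 238.1 to 527.4 in control and 93.0 to 133.5 in Atg5f/f;Vav. *Hba-a1*, with a mean log2 signal of 8.49 in control and 6.23 in Atg5f/f;Vav, made up most of these erythroid sums. *Ermap* was not called at its brightest probe (-0.11), but its other probe gave 2.85 and was called higher (limma adjusted p = 0.0187). Of 10 neutrophil markers, 3 were called higher and 6 lower. Those higher were *Mpo*, *Prtn3* and *Ctsg*, with log2 fold changes of 0.89 to 1.91. Those lower were *Camp*, *Ltf*, *Ngp*, *S100a8*, *S100a9* and *Lcn2*, at -1.21 to -1.38. The neutrophil sums, which add genes of both directions, were 182.8 to 300.8 in control and 245.1 to 304.2 in Atg5f/f;Vav. Of 6 tested stromal markers *Col1a1*, *Col1a2* and *Sparc* were lower, but *Col1a1* was well above background on the 3 control arrays only and so was tested through the group where it was high. The summed stromal signal was 3.14, 31.5 and 24.6 in control, where replicate 1 stood apart, and 1.25 to 1.91 in Atg5f/f;Vav, and *Col3a1* was well above background on no array. No macrophage (4 tested) and no T or NK cell marker (5 tested) was called in limma, with 0 and 1 past an unadjusted p of 0.05 and none by the methods' t-test, and *Cd3g*, *Cd8a* and *Ncr1* were well above background on no array. Of 8 B cell markers 1 was higher, of 7 megakaryocyte markers 1 was higher and 3 lower, and of 6 mast cell and eosinophil markers 1 was lower. The B cell call, *Cd79a*, was well above background on 1 control array and 3 Atg5f/f;Vav arrays, and *Ppbp*, a megakaryocyte marker called lower, on the 3 control arrays only, so that these too were tested through the group where they were high. In sorted cells measured in bulk, fewer cells of a type and less RNA per cell cannot be told apart.

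**Figure D5:**
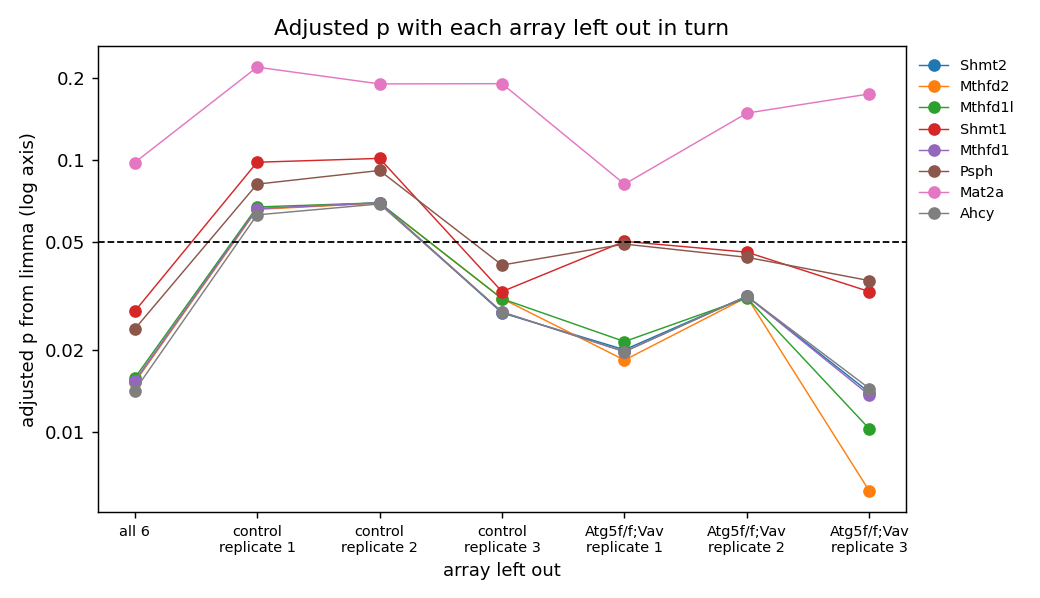
Adjusted p from limma (log axis) of the 8 tested genes with all 6 arrays and after leaving out 1 array at a time. The dashed line is the threshold of 0.05. Without control replicate 1 or 2 all 8 genes lie above it, and *Mat2a* lies above it throughout.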

How the data were processed

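RNA of LSK cells from 3 control and 3 Atg5f/f;Vav samples was hybridised to 1-colour Agilent arrays whose 60-mer probes follow mm9. The authors deposited the scanner's intensity per spot, background-corrected by Agilent Feature Extraction 12.0.3.1, and a table of normalised signal, which was checked to be that intensity divided by the 75th percentile of the array's 62976 spots. The intensity was used here. The log2 intensity of each spot was expressed relative to the 75th percentile of the 59305 non-control spots of its array, 64 to 81 outlier-flagged spots per array were left out, no spot was saturated, and spots of a probe were averaged. The 32074 probes that at least 3 of the 6 arrays showed well above background entered limma 3.58.1 in R 4.3.3 (lmFit, eBayes, 2-sided), and p-values were adjusted over them by Benjamini-Hochberg, with a threshold of 0.05. Genes were represented by the tested probe with the highest mean signal. Arrays count no reads, so their number limits the precision.

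The members and gene lists were chosen with earlier results of these data known. Named were all members, up to 3 called genes per direction of each other pathway list with the largest change, *Phgdh*, *Psat1*, *Tyms*, *Mthfd2l* and *Slc25a32* (a further gene fixed with these is not reported here), up to 2 per direction of each compared list, the 5 genes nearest to the members' mean profile, and *Atg5*. Alternatives were normexp (offset 50) on the mean and background intensity, quantile normalisation, other filters and percentiles, the deposited signal, an intensity trend, the methods' t-test, a replicate block, each array left out, and averaging a gene's probes. No block for slide or scan was possible, as all arrays shared both. In simulated data for 3 arrays against 3 (200 changed probes among 32066), limma called 52 of the 100 probes given a log2 change of 1, 83 of the 100 given a change of 2, and 4 unchanged probes. The simulation changed far fewer probes than the 11024 called in the data, which makes the adjustment stricter. Its noise was independent between probes, so shifts shared by a whole array were absent. These counts therefore do not give the rate of missed or false calls in the data. Promoters came from RefSeq (GRCm38.p6). Probe coordinates are those of the array design on mm9, and exon or UTR annotation on that build was not used here.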

Additional observations from a re-analysis of the deposited data

How the results depend on the processing

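With all 6 arrays 7 members were called, and 5 to 8 under the alternatives other than arrays left out and the adjusted t-test, *Mat2a* being the eighth with normexp, the intensity trend and the unadjusted t-test. The methods' t-test after Benjamini-Hochberg adjustment called 0 members, 0 other pathway genes and 0 of all probes, against 8, 17 and 13539 unadjusted. With each array left out in turn, members called ranged from 0 to 7, other pathway genes from 0 to 14 (15 with all arrays) and all probes from 251 to 10304, the lowest values being those without control replicate 1 or 2, where adjusted p for the members ran from 0.0630 to 0.220 and from 0.0690 to 0.191. Without a filter on dim probes 4538 probes were called in place of 11024. The 8 log2 fold changes stayed above 0 under every alternative run, except that of *Mat2a* after quantile normalisation (-0.053, limma adjusted p = 0.691); the cause was not tested. With a 75th percentile of only those probes that every array detected, calls over all probes split into 3371 higher and 10088 lower, against 5540 and 5484, the median of all genes moved from -0.03 to -0.24, and 5 members were called. The members' median minus that of all genes was 0.92 under both. The replicate numbers were not treated as pairs: same-numbered arrays had correlations of deviations between -0.07 and 0.19, not all above 0.1. With so few arrays these correlations cannot show that the samples were unpaired. With the replicate block 6 members, 14 other pathway genes and 10173 probes were called, and *Shmt1* had an adjusted p of 0.0530.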
